A study of Rattus norvegicus with 15 samples.

Results

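The insulin-like growth factor system was examined here as 11 probes of 9 genes, out of 5088 probes on the arrays, of which 4423 had 1 gene symbol in the platform annotation. A probe was taken if its symbol was Igf1, Igf2, Igf1r, Igf2r, Irs1 or Htra1 or began with Igfbp. The rule reads symbols only, but the symbols were chosen with earlier results of these data known. Igf2 and Igfbp5 had 2 probes each, and Igf1, Igf2r, Irs1, Htra1, Igfbp2, Igfbp3 and Igfbp6 had 1. No probe carried the symbol Igf1r, Igfbp1, Igfbp4 or Igfbp7 in the annotation used here. The cells were dissociated from L4 and L5 dorsal root ganglia (DRG) of juvenile rats and kept in Sato medium. They received dbcAMP at 1.5 mM, a form of cAMP that enters cells, or medium alone, and 3 arrays were analysed at each of 1, 3, 6, 12 and 18 h. The first time is 1 h in the labels of the arrays, where the protocol lists 0 h. Wells were coated with poly-L-lysine or with myelin, and the labels do not say which substrate belongs to which array. The sources name no strain and no age beyond juvenile, and do not give how many cultures or animals stand behind the 3 arrays of a time. A p-value here sets a difference against the variation among arrays, and that variation may be technical.

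Both RNAs of a pair shared an array, with Cy5 on the treated RNA and Cy3 on the control RNA in all 15 cases. A value is the log2 of the deposited ratio of treated over control, so 0 is no difference and 1 is a doubling. Without a dye swap, a dye bias of one probe and an effect of dbcAMP that is alike at all times cannot be told apart. The cultures hold several cell types, and fewer cells of a type and less RNA per cell cannot be told apart either. Only ratios were analysed, so no level of a gene, and no marker of the labelled cell type as a level, can be given. Array medians of the ratio ranged from 0.997 to 1.02, and each array lacked the ratio of 28 to 105 probes. Spread differed between arrays: 9 had an SD of log2 ratios from 0.357 to 0.434, and array 3 of 6 h, arrays 1 and 2 of 12 h and every array of 18 h had one from 0.627 to 0.703.

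Insulin-like growth factors 1 and 2 are secreted ligands that bind a receptor tyrosine kinase at the cell surface. The receptor phosphorylates adaptors such as Irs1, which recruit phosphoinositide 3-kinase and so engage the kinase Akt. Outside the cell, binding proteins hold the ligands and proteases cut the binding proteins, which sets how much ligand is free. In peripheral ganglia these factors are known to support sensory neurons, the growth of their neurites and Schwann cells.

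At 18 h, 2 of the 11 probes were higher and 4 were lower in dbcAMP-treated than in control cells (limma, adjusted p under 0.05). Of all 5006 probes tested at that time 22.0% were called, 10.6% higher and 11.3% lower. The probes that rose were Igfbp2 and Htra1. Those that fell were Igfbp5 probe 49C01, Irs1, Igfbp6 and Igf2 probe 37F04. The median log2 ratio of the 11 probes was -0.47, against 0.01 for all probes tested, and it was -0.15 once each ratio was centred on its probe plate. At earlier times the calls were fewer. Irs1 alone fell at 1 h, where 2.33% of all probes were called and 1.60% were lower, at 3 h (2.87% and 1.94%) and at 6 h (4.19% and 2.35%). Irs1 and Igfbp6 fell at 12 h (8.58% and 4.77%). When arrays were scaled to equal spread, or weighted by their quality, Igfbp5 probe 49C01 was the only one of the 11 called at 18 h. Of all probes, 8.43% were called after scaling and 13.4% with weights. In a limma fit of the 3 arrays of 18 h alone 0 of the 11 were called, with 3.66% of all probes called, and 5 of the 11 had an unadjusted p under 0.05 by the methods' t-test of those arrays, against 18.1% of all probes.

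**Figure D1:**
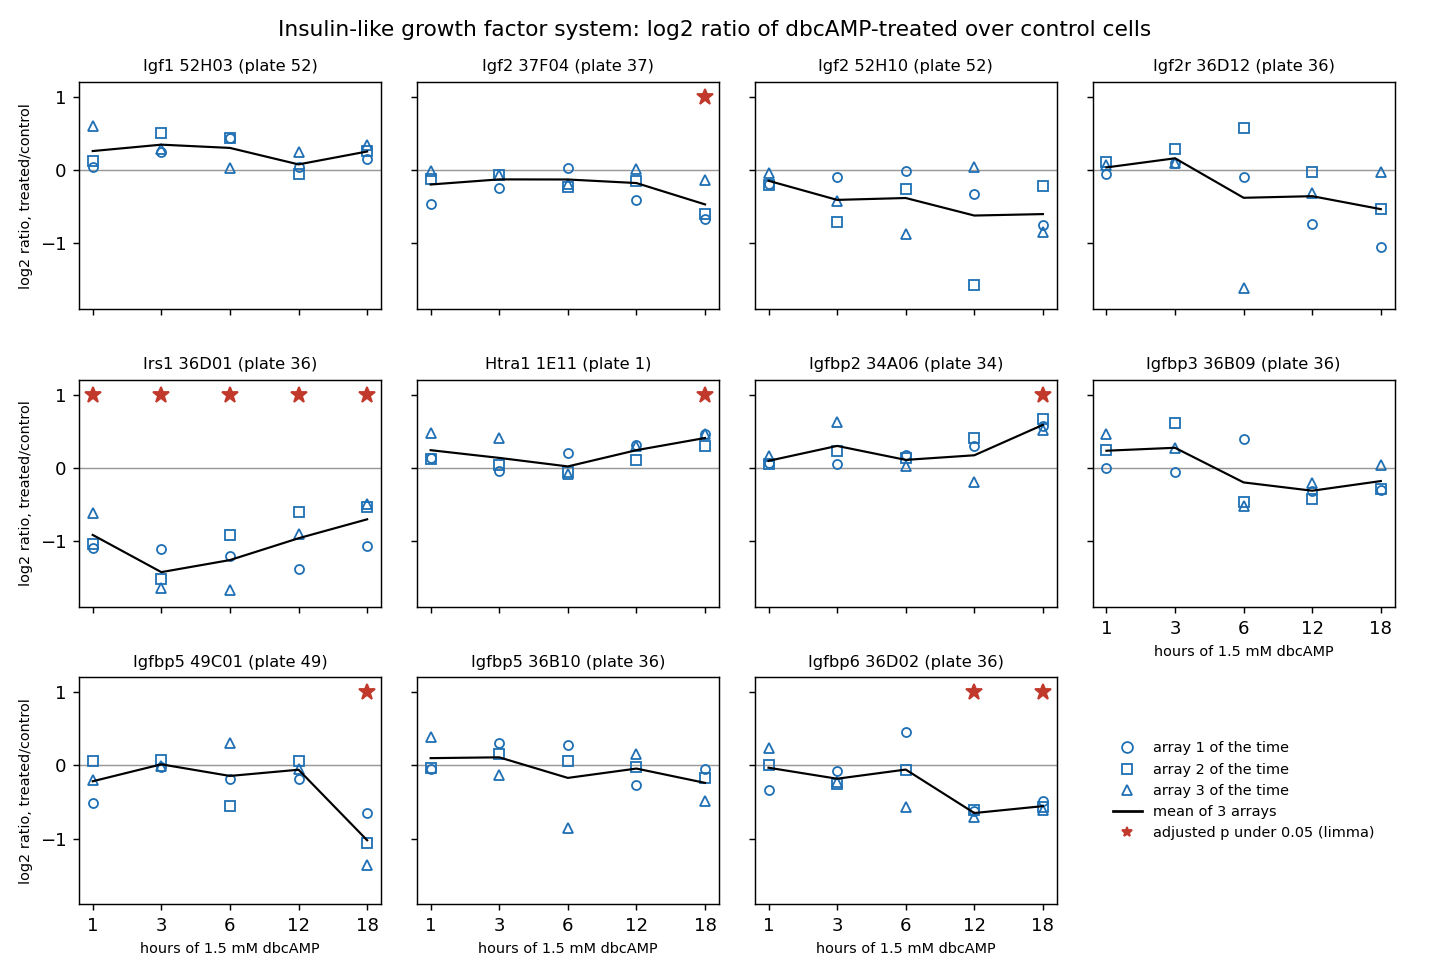
Log2 ratio of treated over control cells (y axis) against hours of dbcAMP (x axis) for each of the 11 probes. Open symbols are the 3 arrays of a time, lines join their means, and stars mark an adjusted p under 0.05 by limma. The Irs1 probe is below 0 on all 15 arrays, and the 3 arrays of 18 h of Igfbp5 probe 49C01 lie below the other 12.

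Probe identifiers have the form of a plate number and a well, and the ratios moved with the plate. The 5088 probes came in 53 plates of 96, and 5 of the 11 probes (Igf2r, Irs1, Igfbp3, Igfbp6 and Igfbp5 probe 36B10) came from plate 36. The median log2 ratio of plate 36 was below 0 on every array, between -1.26 on array 3 of 6 h and -0.15, and 37.9% of its probes fell at 18 h. Of plate 52, which holds Igf1 and Igf2 probe 52H10, 39.6% fell. The shares were 8.33% for plate 1 (Htra1), 9.57% for plate 34 (Igfbp2), 14.6% for plate 37 (Igf2 probe 37F04) and 21.3% for plate 49 (Igfbp5 probe 49C01). After the median of its plate was subtracted from each ratio, Igfbp2 and Igf1 were higher at 18 h and Igfbp5 probe 49C01 was lower. Htra1, Irs1, Igfbp6 and Igf2 probe 37F04 then did not pass. With this centring, 20% of all probes were called at 18 h. What part the plates have in these ratios was not tested.

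**Figure D2:**
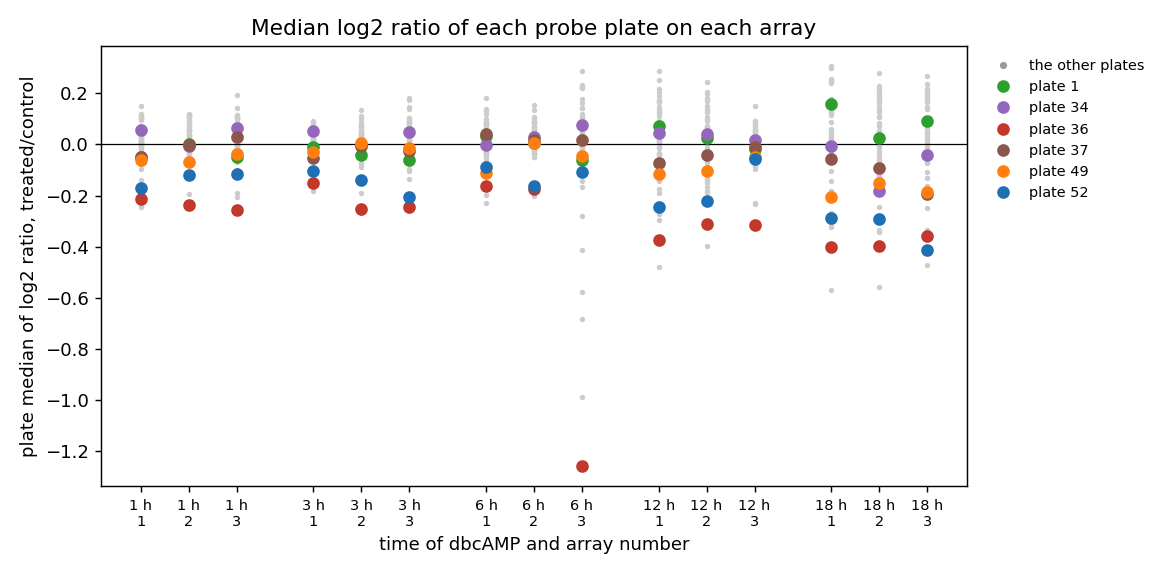
Median log2 ratio, treated over control (y axis), of each of the 53 probe plates on each of the 15 arrays (x axis, time and array number). Coloured points are the 6 plates that hold insulin-like growth factor probes and grey points the others. Plate 36, in red, reaches -1.26 on array 3 of 6 h.

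Of the ligands, Igf1 was above 0 on 14 of 15 arrays and passed the test at no time in the ratios as deposited. Its log2 ratios at 18 h were 0.16, 0.27 and 0.34, a mean of 0.26 ± 0.09 (SD, n = 3 arrays, adjusted p = 0.172 by limma). All 3 arrays were above 0, as were those of 25.1% of all probes. At 3 h the mean of Igf1 was 0.35 (adjusted p = 0.255, and 0.0134 with array weights), and centring on plate medians gave 0.59 at 18 h (adjusted p = 0.00581).

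Igf2, the ligand that is abundant in fetal tissue, was measured by a pair of probes that differed. Probe 37F04 was at -0.67, -0.60 and -0.14 at 18 h, a mean of -0.47 ± 0.29 (SD, n = 3 arrays, adjusted p = 0.0195 by limma). Probe 52H10 was at -0.74, -0.21 and -0.84, a mean of -0.60 ± 0.34 (SD, n = 3 arrays, adjusted p = 0.104). Both were below 0 on all 3 arrays of 18 h, as were 24.1% of all probes, but the array on which 37F04 was nearest to 0 was the one on which 52H10 was lowest. Over 15 arrays the probes correlated at r = 0.09, a description of arrays that share their hybridisations. The widest value of 52H10 was -1.57, on array 2 of 12 h, beside -0.33 and 0.04. The call of 37F04 was lost without array 1 (-0.37, adjusted p = 0.131) or without array 2 (-0.40, adjusted p = 0.103). It was also lost in a limma fit of the 3 arrays of 18 h alone (adjusted p = 0.193).

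Igf2r, the receptor that takes Igf2 into the cell for breakdown, did not pass the test at any time. It was at -1.05, -0.52 and -0.02 at 18 h, a mean of -0.53 ± 0.51 (SD, n = 3 arrays, adjusted p = 0.232 by limma). All 3 arrays were below 0, and 1 of them barely so. With plates centred the means were -0.02 at 12 h and -0.15 at 18 h. At 6 h its arrays were at -0.09, 0.57 and -1.61, and the lowest is the array on which the plate 36 median was -1.26.

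Irs1, the insulin receptor substrate that links the receptor to phosphoinositide 3-kinase, was the only one of the 11 probes called at all 5 times. Its log2 ratios were -1.10, -1.04 and -0.62 at 1 h and -1.11, -1.52 and -1.64 at 3 h. They were -1.20, -0.91 and -1.67 at 6 h, and -1.38, -0.61 and -0.90 at 12 h. At 18 h they were -1.07, -0.54 and -0.50. All 15 arrays were below 0, as they were for 3.66% of the 4815 probes with a ratio on every array. The lowest mean, that of 3 h, was -1.43 ± 0.28 (SD, n = 3 arrays, adjusted p = 0.000578 by limma), place 30 from the lowest of 5050 probes. Means at 1, 6, 12 and 18 h were -0.92, -1.26, -0.96 and -0.70, with adjusted p-values of 0.0178, 0.00149, 0.00573 and 0.0141. The arrays of 3 h lay just below those of 1 h, a difference that was not tested, and the other neighbouring times overlapped. The difference between 18 h and 1 h was 0.21 (SE 0.26, adjusted p = 0.746), and the F test over the 5 times gave an adjusted p = 0.443. For such a course, a dye bias of the probe and an effect of dbcAMP cannot be told apart. The -1.67 of 6 h is on the array on which the plate 36 median was -1.26. Centring on plates gave Irs1 -1.21 at 3 h and -0.73 at 6 h, with adjusted p-values of 0.0011 and 0.0323, while the calls at 1 h (-0.68, adjusted p = 0.07) and 18 h (-0.32, adjusted p = 0.213) were lost. Without array 1 its adjusted p was 0.119 at 18 h and 0.0734 at 12 h, and at 1 h the call was lost without any one of the arrays. With 1 array of 1 h left out, 0.479% to 0.874% of all probes were called, against 2.33% with all arrays.

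The binding proteins moved in both directions. Igfbp5, which binds the growth factors and also the extracellular matrix, gave unlike values in its pair of probes. Probe 49C01 was at -0.65, -1.06 and -1.36 at 18 h, a mean of -1.02 ± 0.35 (SD, n = 3 arrays, SE 0.16, adjusted p = 0.000666 by limma), or a ratio of 0.492. These 3 arrays lay below the other 12, a pattern of 2.51% of the 4815 probes with a ratio on every array. At the earlier times the means of 49C01 were -0.22, 0.01, -0.15 and -0.06. It was called without any one array of 18 h (-0.86 to -1.21) and with plates centred (-0.84, adjusted p = 0.00362). Probe 36B10 was at -0.06, -0.17 and -0.49, a mean of -0.24 ± 0.22 (SD, n = 3 arrays, adjusted p = 0.386), and at 0.15 with plates centred. The difference of 49C01 minus 36B10 was -0.60, -0.89 and -0.87 on the 3 arrays of 18 h, and over 15 arrays the pair correlated at r = 0.15. The probe sequences were not used here, so what part of the transcript each one reads cannot be given. A figure of the study shows Igfbp5 and a protease of it, taken here for Htra1, among the leading changes at 18 h. That figure sets arrays beside qPCR, and the study's text names neither gene. The array values of both genes at 18 h are not independent of that choice.

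Igfbp2, a binding protein of both ligands, was called higher at 18 h, and its differences from 1 h and from 12 h did not pass the test. It was at 0.57, 0.67 and 0.51 at 18 h, a mean of 0.59 ± 0.08 (SD, n = 3 arrays, adjusted p = 0.00494 by limma), or a ratio of 1.50. The 3 arrays were close together, and 1 earlier array, at 0.62 at 3 h, reached into their range. The means at 1, 3, 6 and 12 h were 0.09, 0.30, 0.11 and 0.17, none past the threshold. Igfbp2 was called without any one array of 18 h (0.54 to 0.62) and with plates centred (0.66, adjusted p = 0.00328).

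Igfbp6, which prefers Igf2 as its ligand, fell at 12 h and 18 h. It was at -0.63, -0.61 and -0.71 at 12 h, a mean of -0.65 ± 0.05 (SD, n = 3 arrays, adjusted p = 0.0208 by limma). The arrays of 18 h were at -0.49, -0.57 and -0.61, a mean of -0.56 ± 0.06 (SD, n = 3 arrays, adjusted p = 0.0202). The arrays of each of these times were close together, whereas those of 6 h were at 0.46, -0.07 and -0.57. Leaving out any one array ended the call at 12 h (adjusted p between 0.0642 and 0.0938) and at 18 h (adjusted p between 0.0607 and 0.0805). With plates centred it was at -0.32 (adjusted p = 0.163) and -0.17 (adjusted p = 0.391). Igfbp3, the main carrier of the ligands in blood, was at -0.30, -0.29 and 0.04 at 18 h, a mean of -0.18 (adjusted p = 0.495), and passed the test at no time.

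Htra1, a secreted serine protease that cuts binding proteins such as Igfbp5, was at 0.46, 0.30 and 0.46 at 18 h. The mean was 0.41 ± 0.09 (SD, n = 3 arrays, adjusted p = 0.0218 by limma). These arrays overlapped with those of 1 h (0.13, 0.12 and 0.47), of 3 h (-0.04, 0.04 and 0.41) and of 12 h (0.32, 0.10 and 0.30). The call was lost without array 1 (adjusted p = 0.0946), without array 3 (adjusted p = 0.0903) and with plates centred (0.31, adjusted p = 0.0742).

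**Figure D3:**
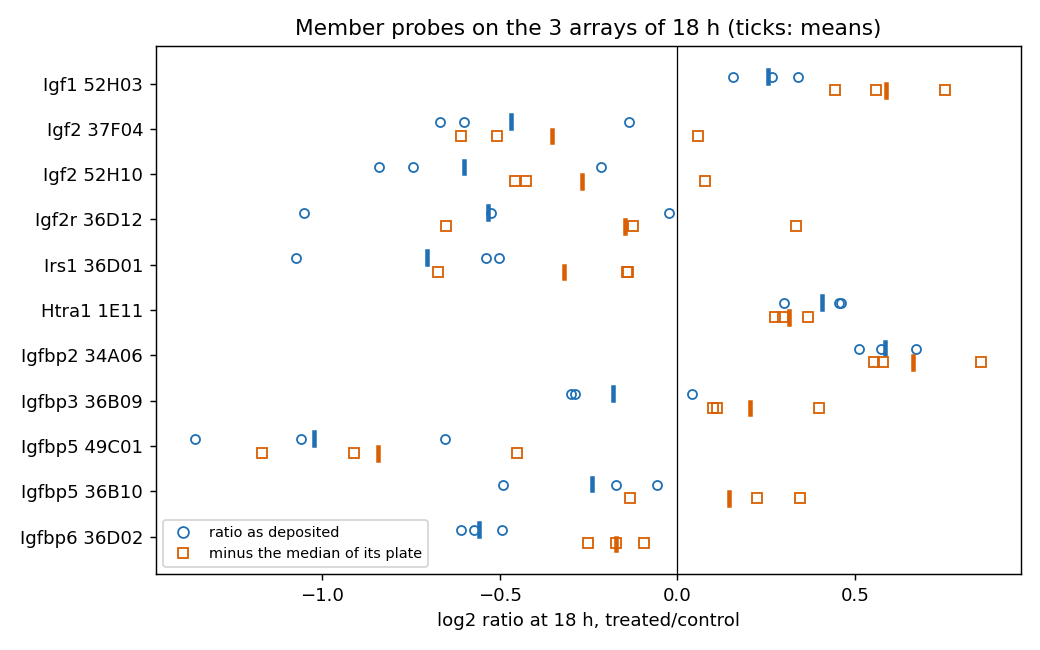
The 11 probes (y axis) on the 3 arrays of 18 h, as log2 ratio of treated over control cells (x axis). Blue circles are ratios as deposited, orange squares are ratios minus the median of the plate, and ticks are means. Igf1, Irs1, Htra1, Igfbp2, Igfbp6 and Igfbp5 probe 49C01 have all 3 arrays on the same side of 0 under both, and Igfbp3 and Igfbp5 probe 36B10 have means that change sign.

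The start regions of the members were read because dbcAMP acts through protein kinase A and the transcription factor CREB, which binds the cAMP response element TGACGTCA or its half-site TGACG. RefSeq promoters, from 250 bases before to 50 after a start in build GRCr8, were held for all 9 genes, with a pair of starts for Igf2 and so 10 promoters. Shown 5′ to 3′ are Igfbp2, which rose at 18 h, Igfbp5, of which probe 49C01 fell and probe 36B10 did not pass the test, Irs1, the member with calls at all 5 times, and Htra1, with half-sites on either strand (TGACG or CGTCA) in capitals.
Igfbp2, chr9:81864561-81864860, plus strand: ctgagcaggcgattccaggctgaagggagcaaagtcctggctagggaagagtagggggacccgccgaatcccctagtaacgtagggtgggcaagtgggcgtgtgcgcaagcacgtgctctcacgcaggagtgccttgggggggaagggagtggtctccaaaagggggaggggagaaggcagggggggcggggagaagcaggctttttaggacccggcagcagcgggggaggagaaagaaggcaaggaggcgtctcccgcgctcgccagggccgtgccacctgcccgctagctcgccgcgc
Igfbp5, chr9:81914138-81914437, minus strand: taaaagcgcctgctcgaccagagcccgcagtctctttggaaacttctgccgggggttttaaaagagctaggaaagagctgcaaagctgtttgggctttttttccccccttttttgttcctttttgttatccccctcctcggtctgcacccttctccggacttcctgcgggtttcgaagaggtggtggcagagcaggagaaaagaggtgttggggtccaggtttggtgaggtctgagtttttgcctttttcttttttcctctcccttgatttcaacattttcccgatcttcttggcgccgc
Irs1, chr9:91053910-91054209, minus strand: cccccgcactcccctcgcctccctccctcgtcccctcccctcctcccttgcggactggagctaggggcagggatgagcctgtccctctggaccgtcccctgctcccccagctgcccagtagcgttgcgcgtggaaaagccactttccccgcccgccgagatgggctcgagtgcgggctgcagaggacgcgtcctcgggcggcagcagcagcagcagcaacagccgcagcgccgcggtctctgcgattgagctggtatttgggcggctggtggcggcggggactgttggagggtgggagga
Htra1, chr1:194927819-194928118, plus strand: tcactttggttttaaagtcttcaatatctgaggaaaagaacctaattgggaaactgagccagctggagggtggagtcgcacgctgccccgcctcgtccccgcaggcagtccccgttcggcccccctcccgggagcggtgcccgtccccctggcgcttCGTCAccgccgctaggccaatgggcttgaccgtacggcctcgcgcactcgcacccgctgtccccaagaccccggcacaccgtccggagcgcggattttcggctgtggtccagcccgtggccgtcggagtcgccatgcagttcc
Igfbp2 and Igfbp5 are neighbours on opposite strands, and no other gene of the RefSeq table starts between them. In all, 4 motifs were searched on both strands, chosen after the ratios had been seen. TGACGTCA, which contains the half-site, was in 0 of the 10 promoters and in 1.83% of the 33469 promoters of the table. TGACG was in 2, those of Htra1 and Igf2r, against 21.2% of all promoters. The AP-2 motif GCCNNNGGC was in 1, that of Htra1, against 15.1%, and the TATA box TATAAA was in 0, against 14.2%. A match is a run of letters and not a shown binding site, and a promoter without one lacks these letters in this window only.

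Between times, none of the 11 probes passed the test. At 18 h minus 1 h, 0 of 11 were called by limma against 2.74% of all probes, with 3 at an unadjusted p under 0.05, as 16.7% of all probes were. These were Igfbp5 probe 49C01 at -0.81 (SE 0.23, adjusted p = 0.0876), Igfbp2 at 0.49 (adjusted p = 0.181) and Igfbp6 at -0.52 (adjusted p = 0.245). At 12 h minus 1 h 0 were called, against 0.300% of all probes, and 2 had an unadjusted p under 0.05, against 8.52%. At 6 h minus 1 h the counts were 0 and 0, against 0.139% and 5.10% of all probes, and at 18 h minus 12 h they were 0 and 2, against 0.622% and 14.4%. The largest difference between 18 h and 12 h was that of Igfbp5 probe 49C01, -0.96 (adjusted p = 0.0743). The F test over the 5 times called 0, against 1.87% of all probes, with 2 at an unadjusted p under 0.05, against 14.7%, and called 1 after scaling.

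Genes that act with the members were taken from 3 lists. Of the other ligands, receptors and adaptors, 9 of 17 genes were on the arrays with 13 probes, of which 0 rose and 1 fell at 18 h (limma), and the median was 0.04. The 1 that fell was Grb14, an adaptor that inhibits the insulin receptor, at -0.91 (adjusted p = 0.0111), and it was at -1.08 at 1 h. Of kinases and other signalling proteins below the receptors, 29 of 46 genes had 32 probes, of which 4 rose and 3 fell, with a median of 0.08. Of Rps6kb1, the S6 kinase, probe 52F12 was at 1.12 (adjusted p = 0.00373) and already at 1.17 at 1 h, while probe 34G05 was at 0.0037 (adjusted p = 0.987) and at -0.14 at 1 h. Map2k2, a kinase of the ERK cascade, was at -0.87 (adjusted p = 0.000283), and at 1 h it had been at -0.74. Of Bad, a cell death protein that Akt phosphorylates, probe 52F07 was at -0.74 (adjusted p = 0.000688) and probe 31G11 at -0.34 (adjusted p = 0.0802). Inpp5d, a lipid phosphatase, was at -0.82 (adjusted p = 0.00604). Grb14 and Map2k2 are also from plate 36, and with plates centred both lost their call (adjusted p = 0.112 for Grb14 and adjusted p = 0.0607 for Map2k2).

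Of the proteases of binding proteins and their inhibitors, 21 of 32 genes had 22 probes, of which 6 rose and 1 fell at 18 h. The median was 0.17 against 0.01 for all probes. Most probes of the list came from plates 12 and 13, which had medians of 0.19 and 0.13 at 18 h. Plat, the tissue plasminogen activator, was at 1.04, 0.91 and 1.17, a mean of 1.04 ± 0.13 (SD, n = 3 arrays, adjusted p = 1.56e-05 by limma). Stc1, which inhibits the protease Pappa, was at 0.84 (adjusted p = 0.000709). Ctsl, a lysosomal cysteine protease, was at 0.82 (adjusted p = 0.000784) and Adam17, a membrane protease, at 0.46 (adjusted p = 0.00682). These 4 genes were between -0.04 and 0.18 at 1 h. With plates centred, 6 probes of the list were higher and 2 lower, where 20% of all probes were called. The counts of the 3 lists are descriptions, set beside 22.0% of all probes called.

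**Figure D4:**
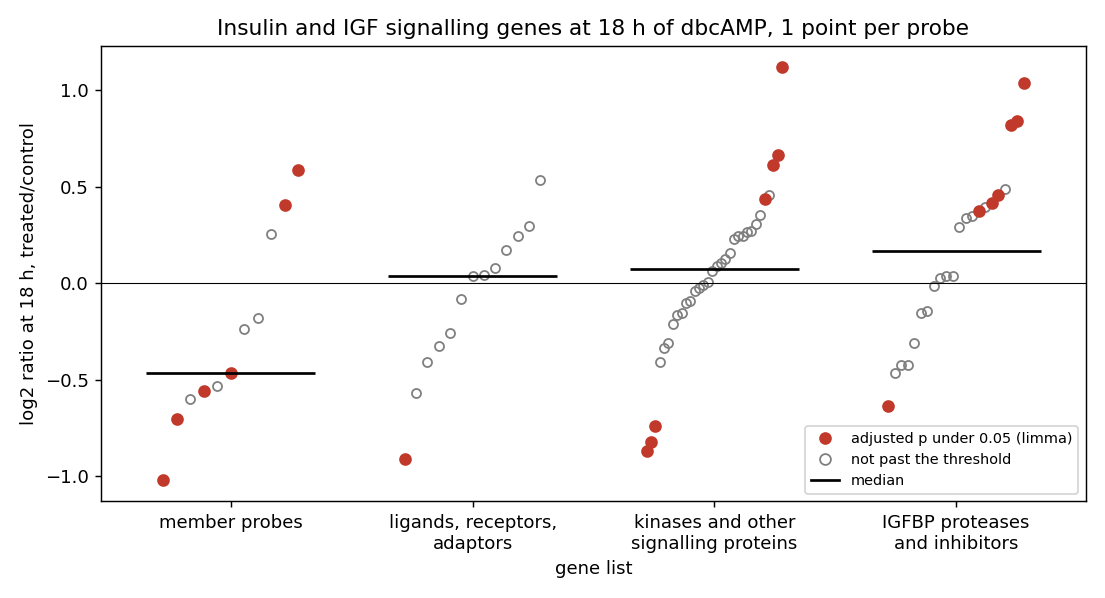
Mean log2 ratio of treated over control cells at 18 h (y axis) of the 11 probes and of the 3 lists of related genes (x axis), 1 point per probe. Filled points passed an adjusted p under 0.05 by limma, and bars are medians, at -0.47 for the 11 probes (-0.15 with plates centred, not drawn) and at 0.04, 0.08 and 0.17 for the lists.

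Markers of the cell types that such cultures can hold were also counted at 18 h (limma). Beside them, 22.0% of all probes were called at that time, 10.6% higher and 11.3% lower. Of 14 fibroblast probes 5 fell and 1 rose, with a median of -0.24. Of 23 probes of Schwann cells and satellite glia 4 rose and 4 fell (median -0.11), and of 21 of sensory neurons 2 rose and 3 fell (median -0.11). Of 8 macrophage probes and 11 endothelial probes, 1 rose and 1 fell in each list (medians -0.03 and 0.04). The part of cell type shares in the ratios of the members was not tested.

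Named probes with the most similar course over the 15 arrays were sought for each of the 6 probes called at 18 h, by Pearson's r among 4271 probes. For Igfbp5 probe 49C01 they were Tmsb4x (r = 0.90), Chrm3 (r = 0.85) and Parm1 (r = 0.84), and for Irs1 they were Nr0b1 (r = 0.92), Acaca (r = 0.80) and Acacb (r = 0.79). Igfbp2 was most like Cacna1c, Adcy10 and Mt1 (r = 0.82, 0.81 and 0.80), and Htra1 most like Hand2, Ftl1 and Gapdh (r = 0.83, 0.78 and 0.75). Igfbp6 was most like Ndrg4, Col5a2 and Selenow (r = 0.84, 0.83 and 0.81), and Igf2 probe 37F04 most like Stmn2, Fgg and Cntn5 (r = 0.83, 0.82 and 0.80). These values describe probes that share the same arrays, and they are the highest of many.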

How the data were processed

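RNA of dbcAMP-treated and of control DRG cells was hybridised together on each of 15 spotted oligonucleotide arrays. The values deposited by the authors are linear ratios, treated over control, 1 for each probe on an array. How they corrected background and normalized is not given in the sources used here, and scanner intensities were not used. Groups came from the labels, and 0 arrays were left out. The log2 of each ratio was tested in R 4.3.3 with limma 3.58.1 (lmFit, eBayes), with 1 mean per time and all 15 arrays in 1 fit, where 2 or more of a time's 3 arrays held a ratio. Tests were two-sided, with a threshold of 0.05 after Benjamini-Hochberg adjustment over all probes. The number of arrays limits the precision. The main fit held 1 variance per probe for all times, although spread differed between arrays. An SD printed beside a p-value is that of the 3 arrays of 1 time only.

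Gene symbols are those of the platform annotation, some of which may be outdated, and all 9 member genes matched RefSeq (GRCr8). Each probe was tested on its own. The rule for naming took every member probe, the called genes of each related list up to the 4 with the smallest p, and the 3 most similar probes of each member called at 18 h. The motifs were chosen after the ratios had been seen. The members and lists were chosen with earlier results of these data known. Alternatives were centring on array or plate medians, scaling, array weights, a robust prior (statmod 1.5.0), probes with 15 ratios, a replicate block, the arrays of a time alone, the methods' test, the arithmetic mean of ratios and leaving out each array. The fit was tested on simulated data. Figures were drawn with matplotlib 3.10.9.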

Additional observations from a re-analysis of the deposited data

Results flagged for a closer look

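Igf2r was above 0 on average at 3 h and below 0 on every array of 12 h and of 18 h, its log2 ratio averaging -0.35 for 12 h and -0.53 for 18 h, against 0.16 for 3 h. With plates centred these means were -0.02 at 12 h, -0.15 at 18 h and 0.38 at 3 h. These differences between times were not tested. Igfbp3 was at -0.31 at 12 h, with all arrays below 0, against 0.23 at 1 h, with none below 0, and the difference of -0.55 had an adjusted p = 0.581 by limma. With 3 arrays per time, no array was tested for standing apart.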

How the results depend on the processing

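Scaling to a common spread left 1 of the 11 probes called at 12 h and 1 at 18 h (5.11% and 8.43% of all probes), and 1 by the F test. Centring on plate medians left 0 at 1 h, 1 at 12 h and 3 at 18 h (1.56%, 6.50% and 20% of all probes). Array weights gave 2 at 3 h, Irs1 and Igf1, and 1 at 18 h (11.2% and 13.4% of all probes). The arrays of a time alone gave 0 at 6 h, 0 at 12 h and 0 at 18 h (0.198%, 0.0997% and 3.66%). The methods' t-test after Benjamini-Hochberg adjustment gave 0 at every time. It called 0% of all probes at 1, 3, 6 and 12 h and 0.0200% at 18 h, so it cannot set the members apart. Without adjustment the t-test gave 2 at 3 h and 5 at 18 h (15.0% and 18.1% of all probes). Without 1 array per time, 0 were called at 1 h, 0 to 2 at 12 h and 2 to 4 at 18 h (16.3% to 18.5% of all probes at 18 h). The related lists, of 13, 32 and 22 probes, had 15 probes called at 18 h. They had 4 after scaling (8.43% of all probes) and 8 with array weights (13.4%). They had 3 from the arrays of 18 h alone (3.66%) and 0 by the methods' t-test after adjustment (0.0200%). The cause was not tested. As deposited, 22.0% of all probes were called at 18 h.

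Values that changed sign belonged to no call. With plates centred, Igfbp3 was at 0.33 at 6 h, 0.0193 at 12 h and 0.20 at 18 h, Igfbp5 probe 36B10 at 0.36, 0.29 and 0.15, and Igfbp6 at 0.20 at 1 h, 0.033 at 3 h and 0.47 at 6 h. Igf2r was then at 0.16 at 6 h, Igfbp5 probe 49C01 at 0.0296 at 12 h, and Igf1 at 0.19 for 18 h minus 1 h. With array weights, Igfbp5 probe 36B10 was at 0.0775 at 6 h and 0.0357 at 12 h, Igfbp6 at 0.14 and Igf2r at 0.0328 at 6 h, Igf1 at 0.0056 for 18 h minus 1 h, and Igf2 probe 52H10 at -0.31 for 18 h minus 12 h. After scaling, Htra1 was at -0.027 for 18 h minus 1 h and Igfbp6 at 0.0042 at 6 h. Centred on array medians, Igfbp5 probe 49C01 was at -8e-04 at 3 h. Leaving out 1 array moved the value across 0 for Htra1 at 3 h (-0.0016 to 0.221) and 6 h (-0.0726 to 0.0693), Igf1 at 12 h (-0.0028 to 0.144), Igf2r at 6 h (-0.852 to 0.241) and Igfbp6 at 1 h (-0.169 to 0.122) and 6 h (-0.316 to 0.196). It did so for Igfbp5 probe 36B10 at 1 h (-0.0437 to 0.174), 6 h (-0.397 to 0.168) and 12 h (-0.146 to 0.0646) and probe 49C01 at 3 h (-0.0176 to 0.033), 6 h (-0.372 to 0.0594) and 12 h (-0.118 to 0.0011). Leaving out a replicate number did so for Igf1 at 18 h minus 1 h (-0.0792 to 0.125), and at 18 h minus 12 h for Igf2 probe 52H10 (-0.646 to 0.469) and Igfbp5 probe 36B10 (-0.397 to 0.0315).

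The replicate numbers are shared between times. Same-numbered arrays did not deviate together over all probes, with correlations of -0.06 to 0.07 in 30 pairs and 0 over 0.1. The main fit used no pairing, and a pairing that touches few probes was not tested. A fit with the replicate block called 6 of the 11 probes at 18 h and 21.7% of all probes, and changed no other call of the members.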
